A study of Homo sapiens with 9 samples.

Results

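The genes described here moved in opposite directions when AMOT or YAP1 was knocked down in HEK293 cells, a human embryonic kidney line. They were the named probes on which all 3 arrays of one knockdown lay above, and all 3 of the other lay below, all 3 wild-type arrays, with mean log2 differences from wild type of at least 0.3 in each direction. Symbols starting with RNU1, RNVU1, H2A, H2B, SLC, ZNF, COL, RPL or RPS were left out. So were 4 further genes, INSIG1, PHLDA3, GID4 and CCN2. This left 14529 named probes. The rule gave 55 of the 15467 named probes, or 52 of the 11629 named genes. Of these, 22 probes of 20 genes were higher in AMOT-knockdown cells and lower in YAP-knockdown cells, and 33 probes of 32 genes were higher in YAP-knockdown cells and lower in AMOT-knockdown cells (0.151% and 0.227% of the probes not left out). The same values chose the genes, so their levels and differences are given as a description, with no test.

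The study held 3 arrays of HEK293 cells with an shRNA (a short hairpin RNA) against AMOT, 3 with an shRNA against YAP1 and 3 of wild-type HEK293 cells. Titles in the labels say knockout; hairpins and the design text's KD point to knockdown, the word used here. No array of a control hairpin is labelled, so the hairpin vector and any selection cannot be told apart from lowering the target, and neither can features of a particular hairpin or cell line. The labels give neither the number of hairpins per target nor the time of harvest. The design text speaks of 3 individual experiments. Nothing says that these were separate cultures, so the spread between arrays may be partly technical. In bulk RNA, fewer cells with a transcript and less transcript per cell cannot be told apart.

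Angiomotin, the product of AMOT, is a scaffold protein of cell junctions and the actin cytoskeleton that binds YAP and can hold it outside the nucleus. YAP, the product of YAP1, is a coactivator that works in the nucleus with TEAD factors, and the Hippo kinases restrain it.

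AMOT had log2 intensities of 10.11, 10.21 and 10.36 in AMOT-knockdown cells, 13.68, 13.74 and 13.78 in YAP-knockdown cells and 14.33, 14.32 and 14.22 in wild type. YAP1 had 10.60, 10.65 and 10.84 in AMOT-knockdown cells, 9.15, 9.15 and 9.26 in YAP-knockdown cells and 10.74, 10.83 and 10.76 in wild type. Each target was thus lowest in its own knockdown. Unless another scale is named, levels and differences are log2 of the authors' normalized intensities (series matrix). Of 9 markers of HEK293 cells (kidney, epithelial and neuronal filament genes), 8 were among the named probes, and NEFL, NEFM, INA, VIM, KRT8, CDH2 and LIN28B were detected on all 9 arrays. Detection here means a detection p under 0.05, the share of negative control beads as bright as the probe. The summed signal of the 8 after background correction (log2) was 16.21 to 16.34 in AMOT-knockdown cells, 15.87 to 15.89 in YAP-knockdown cells and 15.59 to 15.66 in wild type; the part of this in the results was not tested. Of 7 fibroblast markers COL1A1 and of 6 blood cell markers CD14 were detected on all 9 arrays, and none of the 7 endothelial markers was among the named probes. The fibroblast markers summed in the same way to 7.67 to 7.85 in AMOT-knockdown cells, 7.95 to 8.05 in YAP-knockdown cells and 7.64 to 8.05 in wild type. On the same background-corrected scale CD14 was 6.79 to 7.01 in AMOT-knockdown cells, 6.19 to 6.38 in YAP-knockdown cells and 6.18 to 6.46 in wild type, and its part in the results was not tested either.

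Across the 22 probes higher in AMOT-knockdown cells, the difference from wild type was between 0.32 and 0.90 in AMOT-knockdown cells (median 0.42) and between -0.95 and -0.31 in YAP-knockdown cells (median -0.42). Across the 33 probes higher in YAP-knockdown cells, it was between -0.88 and -0.30 in AMOT-knockdown cells (median -0.44) and between 0.31 and 0.67 in YAP-knockdown cells (median 0.43). Over all named probes both medians lay near 0 (-0.02 in AMOT-knockdown cells). These are changes of moderate size: over all named probes the differences ran from -4.07 to 3.01 in AMOT-knockdown cells and from -2.32 to 3.92 in YAP-knockdown cells. The AMOT knockdown had the larger of the 2 differences on 8 of the 22 probes of the set higher in AMOT-knockdown cells and on 20 of the 33 probes of the other set.

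**Figure D1:**
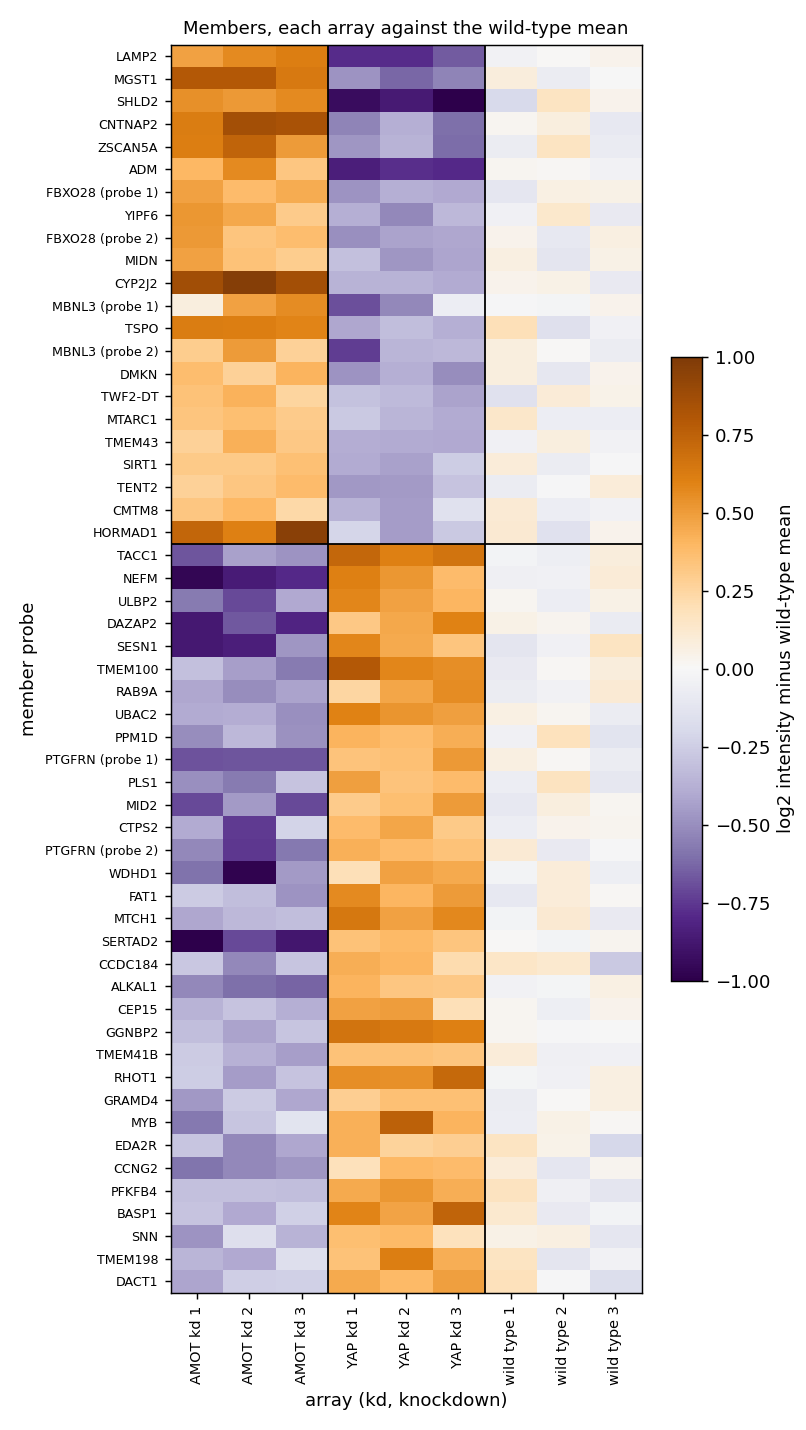
Each row is a member probe and each column an array, with the colour giving its log2 intensity minus the wild-type mean of that probe. Above the line are the 22 probes higher in AMOT-knockdown cells and below it the 33 higher in YAP-knockdown cells, each set ordered by the smaller of its 2 differences; the wild-type arrays stay near 0 and the knockdown arrays take opposite colours.

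The named genes are ordered by what their products do, an order chosen after the values were seen. In the set higher in AMOT-knockdown cells, LAMP2 encodes a heavily glycosylated protein of the lysosomal membrane that takes part in autophagy. Its member probe had 10.21, 10.29 and 10.34 in AMOT-knockdown cells, 8.94, 8.94 and 9.07 in YAP-knockdown cells and 9.69, 9.73 and 9.76 in wild type. The AMOT knockdown mean was 2.46-fold that of the YAP knockdown, and the gap between each knockdown and the nearest wild-type array (0.45 and 0.63) was wider than the wild-type range of 0.07. MGST1, a glutathione transferase of the endoplasmic reticulum and outer mitochondrial membrane, had 10.98, 10.98 and 10.82 in AMOT-knockdown cells, 9.71, 9.56 and 9.65 in YAP-knockdown cells and 10.27, 10.11 and 10.18 in wild type. Its distance from wild type was larger in AMOT-knockdown cells, 0.74 against -0.54. CYP2J2, a cytochrome P450 that makes epoxides of arachidonic acid, had 10.18, 10.29 and 10.17 in AMOT-knockdown cells, 8.95, 8.95 and 8.92 in YAP-knockdown cells and 9.35, 9.37 and 9.23 in wild type. Its difference of 0.90 was the largest of the set in AMOT-knockdown cells, set against -0.37 in YAP-knockdown cells.

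ADM, which encodes the vasodilator peptide adrenomedullin, had 11.39, 11.56 and 11.32 in AMOT-knockdown cells, 10.16, 10.22 and 10.20 in YAP-knockdown cells and 11.02, 11.01 and 10.96 in wild type. Here the YAP knockdown stood farther from wild type, -0.80 against 0.42. CNTNAP2, a cell adhesion protein of the neurexin family, had 11.11, 11.34 and 11.32 in AMOT-knockdown cells, 9.95, 10.11 and 9.88 in YAP-knockdown cells and 10.51, 10.56 and 10.39 in wild type. TSPO, a cholesterol-binding protein of the outer mitochondrial membrane, had 13.20, 13.19 and 13.17 in AMOT-knockdown cells, 12.17, 12.26 and 12.20 in YAP-knockdown cells and 12.77, 12.43 and 12.54 in wild type. Its wild-type arrays spread over 0.34, more than its gap of 0.17 between the YAP knockdown and the nearest wild-type array. DMKN, a secreted protein of the epidermis, and the mitochondrial reductase MTARC1 were nearer to the limit, at 0.35 and 0.34 in AMOT-knockdown cells and -0.45 and -0.34 in YAP-knockdown cells.

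In the same set, SHLD2, a subunit of the shieldin complex that protects broken DNA ends from resection, had 11.10, 11.07 and 11.12 in AMOT-knockdown cells, 9.62, 9.69 and 9.53 in YAP-knockdown cells and 10.36, 10.72 and 10.59 in wild type. Its AMOT knockdown mean was 2.80-fold that of the YAP knockdown, the widest split of the set, and its difference of -0.95 was the largest of the set in YAP-knockdown cells. ZSCAN5A, a zinc finger protein, had 8.73, 8.85 and 8.62 in AMOT-knockdown cells, 7.64, 7.75 and 7.50 in YAP-knockdown cells, where 2 of 3 arrays detected it, and 8.04, 8.27 and 8.03 in wild type. FBXO28, the substrate receptor of a ubiquitin ligase, was a member by 2 probes, with differences of 0.43 and 0.41 in AMOT-knockdown cells and -0.42 and -0.44 in YAP-knockdown cells. MIDN, a protein that carries nuclear proteins to the proteasome, stood at 0.37 and -0.40, and the Golgi membrane protein YIPF6 at 0.43 and -0.41, in each case AMOT knockdown before YAP knockdown.

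MBNL3, a muscleblind regulator of splicing, was a member by 2 probes. Its brighter probe, with the least even arrays of the set, had 9.18, 9.58 and 9.66 in AMOT-knockdown cells, 8.41, 8.58 and 9.04 in YAP-knockdown cells and 9.09, 9.08 and 9.14 in wild type. The knockdowns came within 0.04 and 0.05 of a wild-type array, so its membership by this probe rests on small gaps. TWF2-DT, a long non-coding RNA gene, stood at 0.34 in AMOT-knockdown cells and -0.35 in YAP-knockdown cells. The remaining 5 genes of the set were the inner nuclear membrane protein TMEM43, the NAD-dependent deacetylase SIRT1, the poly(A) polymerase TENT2, the membrane protein CMTM8 and HORMAD1, a protein of meiotic chromosome axes. The first 4 of these lay between 0.32 and 0.33 in AMOT-knockdown cells and between -0.40 and -0.32 in YAP-knockdown cells. HORMAD1 had 8.52, 8.39 and 8.74 in AMOT-knockdown cells and 7.90, 7.64 and 7.82 in wild type and was undetected on all 3 YAP-knockdown arrays. Against the level at which detection ended, it was at least 1.96-fold higher in AMOT-knockdown cells than in YAP-knockdown cells, and at least 1.15-fold lower in YAP-knockdown cells than in wild type, where 3 of 3 arrays detected it.

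**Figure D2:**
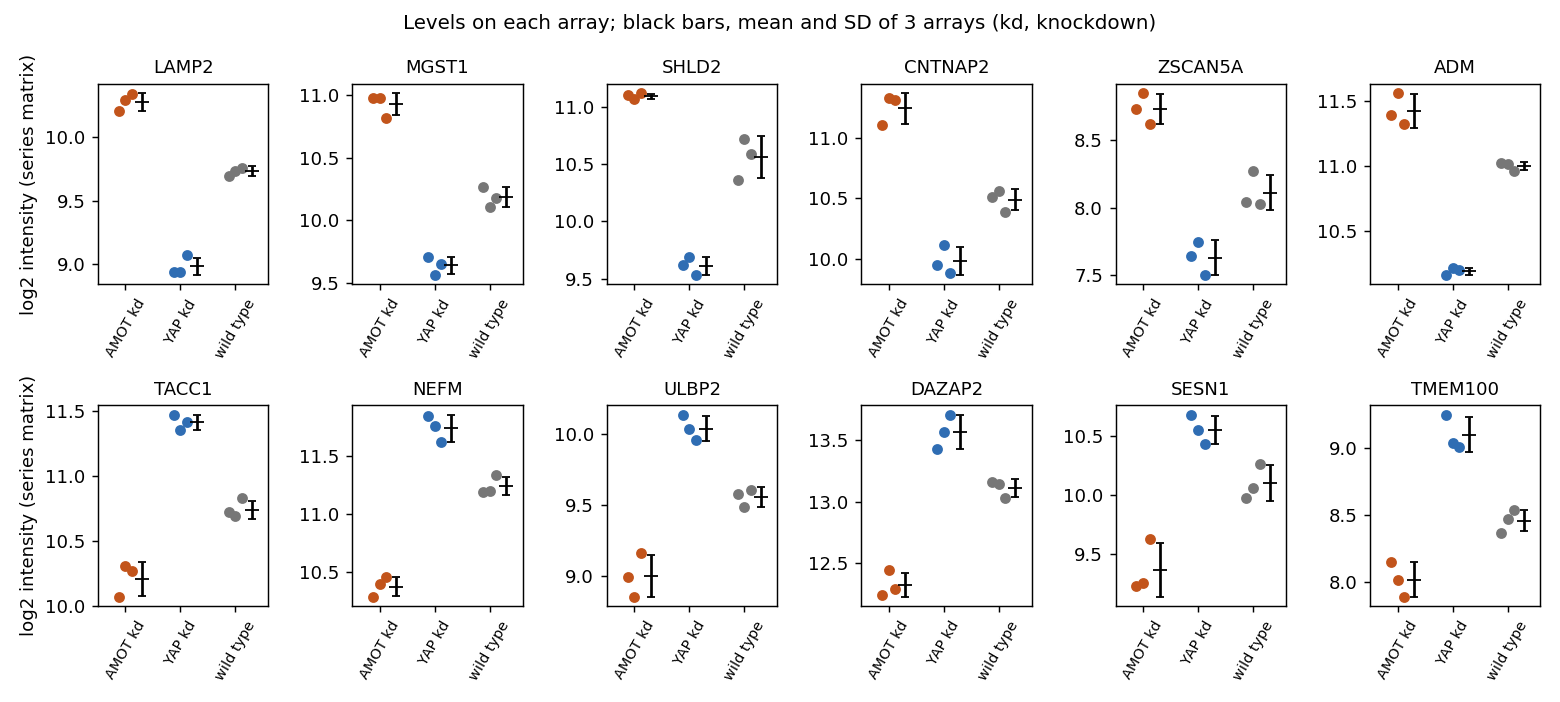
Log2 intensity (series matrix) on each of the 9 arrays for the 6 leading genes of each set, with orange points for the AMOT knockdown, blue for the YAP knockdown and grey for wild type; black bars give the mean and SD of 3 arrays, and each panel has its own vertical range that does not start at 0. In the upper row the AMOT knockdown lies above and the YAP knockdown below wild type, as for LAMP2 with means of 10.28, 8.98 and 9.73 for the AMOT knockdown, the YAP knockdown and wild type, and in the lower row the order is turned.

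In the set higher in YAP-knockdown cells, NEFM, the medium neurofilament subunit, had 10.28, 10.39 and 10.45 in AMOT-knockdown cells, 11.85, 11.76 and 11.62 in YAP-knockdown cells and 11.19, 11.20 and 11.34 in wild type. Its difference of -1.37 between the AMOT and the YAP knockdown was the widest of this set. TACC1, a coiled-coil protein of centrosomes and microtubules, had 10.07, 10.31 and 10.27 in AMOT-knockdown cells, 11.47, 11.35 and 11.41 in YAP-knockdown cells and 10.72, 10.69 and 10.83 in wild type, and its difference of 0.67 in YAP-knockdown cells was the largest of the set. PLS1, an actin-bundling protein of the fimbrin family, stood at -0.45 in AMOT-knockdown cells and 0.40 in YAP-knockdown cells. MID2, a ubiquitin ligase of microtubules, stood at -0.62 and 0.39 by its member probe. FAT1, a very large cadherin whose Drosophila relative Fat acts upstream of the Hippo kinases, had 10.45, 10.39 and 10.23 in AMOT-knockdown cells, 11.28, 11.11 and 11.21 in YAP-knockdown cells and 10.61, 10.80 and 10.72 in wild type.

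Of the 18 measured genes on the list of targets of p53, the transcription factor of the DNA damage response, 1 was a member, SESN1. PHLDA3, also known as a p53 target, had been left out by symbol, so it could not be a member. SESN1 encodes a sestrin that restrains the growth kinase complex mTORC1, and it had 9.23, 9.26 and 9.63 in AMOT-knockdown cells, 10.68, 10.55 and 10.43 in YAP-knockdown cells and 9.98, 10.06 and 10.26 in wild type. PPM1D, a phosphatase that p53 induces and that dampens p53 signalling, averaged 10.60 ± 0.09 in AMOT-knockdown cells, 11.45 ± 0.03 in YAP-knockdown cells and 11.05 ± 0.15 in wild type (SD, n = 3 each). EDA2R, a death-domain receptor of the tumour necrosis factor receptor family, had 8.24, 8.08 and 8.10 in YAP-knockdown cells and 7.98, 7.86 and 7.61 in wild type, where 2 of 3 arrays detected it, and was undetected on all 3 AMOT-knockdown arrays. It was at least 1.47-fold higher in YAP-knockdown cells than in AMOT-knockdown cells. PPM1D and EDA2R, also known as p53 targets, were not on the list and were named as such after their values were seen.

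ULBP2, a stress-induced ligand of the natural killer cell receptor NKG2D, had 8.99, 8.85 and 9.16 in AMOT-knockdown cells, 10.14, 10.04 and 9.96 in YAP-knockdown cells and 9.58, 9.49 and 9.61 in wild type. TMEM100, a small membrane protein, had 8.15, 8.02 and 7.89 in AMOT-knockdown cells, 9.25, 9.04 and 9.01 in YAP-knockdown cells and 8.37, 8.47 and 8.54 in wild type. PTGFRN, an immunoglobulin-family partner of tetraspanins, was a member by 2 probes, at -0.68 and -0.62 in AMOT-knockdown cells and 0.40 and 0.38 in YAP-knockdown cells. RAB9A, a small GTPase of transport from late endosomes to the Golgi, stood at -0.45 in AMOT-knockdown cells and 0.43 in YAP-knockdown cells, and UBAC2, a protein of the endoplasmic reticulum, at -0.43 and 0.54.

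DAZAP2, a small proline-rich adaptor protein, had 12.24, 12.44 and 12.29 in AMOT-knockdown cells, 13.43, 13.57 and 13.71 in YAP-knockdown cells and 13.16, 13.14 and 13.03 in wild type. WDHD1, a protein of the replication fork, stood at -0.68 in AMOT-knockdown cells and 0.37 in YAP-knockdown cells. CTPS2, which makes CTP, stood at -0.45 and 0.39, with an SD of 0.26 between the 3 AMOT knockdown arrays. PFKFB4, an enzyme that sets the level of an activator of glycolysis, had 9.25, 9.25 and 9.24 in AMOT-knockdown cells, 10.01, 10.08 and 9.99 in YAP-knockdown cells and 9.73, 9.51 and 9.44 in wild type.

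EDA2R, described above, is 1 of the 16 other genes of this set. SERTAD2, a regulator of E2F-dependent transcription, had 9.74, 10.08 and 9.91 in AMOT-knockdown cells, 11.14, 11.18 and 11.12 in YAP-knockdown cells and 10.79, 10.76 and 10.82 in wild type, and its difference of -0.88 in AMOT-knockdown cells was the farthest below wild type in the set. GGNBP2 had the tightest wild-type arrays, with 10.52, 10.41 and 10.55 in AMOT-knockdown cells, 11.49, 11.47 and 11.44 in YAP-knockdown cells and 10.85, 10.82 and 10.83 in wild type. The mitochondrial proteins MTCH1, an insertase of the outer membrane, and RHOT1, a GTPase that links mitochondria to motor proteins, stood at -0.35 and -0.34 in AMOT-knockdown cells and 0.57 and 0.60 in YAP-knockdown cells. The transcription factor MYB stood at -0.33 in AMOT-knockdown cells and 0.53 in YAP-knockdown cells, the cyclin CCNG2 at -0.53 and 0.32, and ALKAL1, a ligand of the receptor kinase ALK, at -0.59 and 0.35. CCDC184, CEP15, TMEM41B (a lipid scramblase of the endoplasmic reticulum), GRAMD4, the growth cone protein BASP1, SNN, TMEM198 and DACT1, a binding partner of Dishevelled in Wnt signalling, were between -0.38 and -0.30 in AMOT-knockdown cells and between 0.31 and 0.60 in YAP-knockdown cells.

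The limit of 0.3 cut through a continuum. HORMAD1 and CMTM8 were the last inside it among genes higher in AMOT-knockdown cells, with smaller differences of -0.313 and 0.316, and ARHGAP22 and ATG5 the nearest outside, at -0.299 in YAP-knockdown cells and 0.299 in AMOT-knockdown cells. Among genes higher in YAP-knockdown cells DACT1 and TMEM198 were just inside, at -0.301 and -0.304 in AMOT-knockdown cells, and IFNAR1 and CDC42SE1 just outside, IFNAR1 at 0.30 after rounding in YAP-knockdown cells and CDC42SE1 at -0.297 in AMOT-knockdown cells. Both gaps to wild type were wider than the wild-type range for 11 of the 22 probes higher in AMOT-knockdown cells and 18 of the 33 higher in YAP-knockdown cells. CCDC184 had the smallest gap, 0.01 between the AMOT knockdown and wild type, with a wild-type range of 0.41. In addition, 6 unnamed probes met the numeric limits with the AMOT knockdown high and 1 with the YAP knockdown high, and 5 probes in each direction were left out by symbol.

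The wild-type means of the member probes had a median of 10.52 in the set higher in AMOT-knockdown cells and 10.58 in the set higher in YAP-knockdown cells, beside 9.29 over all named probes. On all 9 arrays 20 of the 22 and 32 of the 33 probes were detected, beside 84.5% of all named probes. ZSCAN5A, HORMAD1 and EDA2R were the exceptions.

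The same arrays were also taken from the unprocessed signals, with background correction, quantile normalization and limma's moderated test over 22375 probes at a Benjamini-Hochberg adjusted p under 0.05. Over all tested probes 35.1% were called in AMOT-knockdown cells and 37.3% in YAP-knockdown cells, and 17.4% between the knockdowns. By direction, 17.6% were called higher and 17.5% lower in AMOT-knockdown cells than in wild type, and 18.5% higher and 18.7% lower in YAP-knockdown cells. Of the set higher in AMOT-knockdown cells, 20 of 22 probes were called higher in AMOT-knockdown cells and 21 of 22 lower in YAP-knockdown cells, the exceptions being both probes of MBNL3 in AMOT-knockdown cells and its brighter probe in YAP-knockdown cells. In the set higher in YAP-knockdown cells 32 of 33 probes were called lower in AMOT-knockdown cells, MYB being the exception, and 30 of 33 higher in YAP-knockdown cells, with CTPS2, WDHD1 and CCDC184 not called. Between the knockdowns all 22 were called higher and all 33 lower in AMOT-knockdown cells, beside 8.61% and 8.84% of all tested probes. Since these contrasts had chosen the members, nothing is read from those counts. Both calls in opposite directions were made for 20 and 29 of the members; over all tested probes, unnamed ones included, 69 probes (0.308%) were called higher in AMOT-knockdown cells and lower in YAP-knockdown cells and 69 (0.308%) the other way.

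Background correction widened the differences of dim probes most. HORMAD1 had fitted differences of 1.53 in AMOT-knockdown cells and -0.78 in YAP-knockdown cells, beside 0.76 and -0.31 before the correction. ZSCAN5A had 1.08 and -1.13, beside 0.62 and -0.48, and EDA2R had -0.98 and 0.73, beside -0.40 and 0.32. For HORMAD1 in YAP-knockdown cells and EDA2R in AMOT-knockdown cells, where they were undetected, such fitted sizes depend on the background and the offset. Over all named probes, all 3 arrays lay outside the wild-type arrays, on the same side, on 52.5% of probes in AMOT-knockdown cells and on 55.9% in YAP-knockdown cells. The same arrays had chosen the members, so whether they kept their directions is a description. All 55 member probes kept both directions, and with the arrays scaled to a common median in place of quantile normalization they did so too. Fewer of them then met the whole rule, however: on unprocessed signals scaled to equal medians, 9 of the 22 and 23 of the 33.

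**Figure D3:**
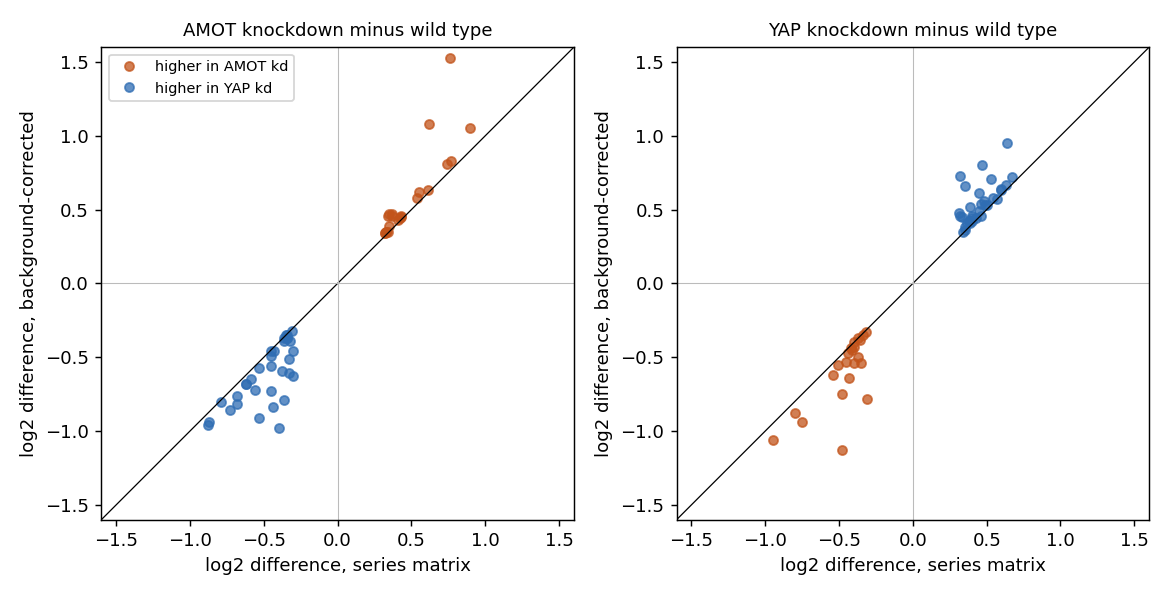
Each point is a member probe, orange for the set higher in AMOT-knockdown cells and blue for the set higher in YAP-knockdown cells. The horizontal axis gives the log2 difference from wild type in the series matrix and the vertical axis the same difference after background correction, with the line of equality; all points keep their sign, and HORMAD1 (0.76 and 1.53 in AMOT-knockdown cells) lies farthest above the line.

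The other named probes of the same genes are those that did not meet the rule, so by definition they fall short of the members. A further probe that met it was counted as a member, as for FBXO28, MBNL3 and PTGFRN. Of the 52 genes, 18 had 28 further named probes, and 16 of these had the same 2 directions as the member probe, 6 of 12 in the set higher in AMOT-knockdown cells and 10 of 16 in the other. These values come from the same arrays and contrasts as the rule and are a description. For 11 of the 18 genes all further probes kept both directions by the sign of the mean difference alone, among them FAT1, PLS1, DMKN, SHLD2, DACT1 and CTPS2. FAT1's further probe stood at -0.22 in AMOT-knockdown cells and 0.48 in YAP-knockdown cells, PLS1's at -0.28 and 0.45, and CTPS2's at -0.25 and 0.67. Others were weaker. TSPO's stood at 0.09 and -0.11 and MGST1's at 0.15 and -0.21, each with AMOT-knockdown arrays that overlapped wild type. HORMAD1's, detected on 3 of 9 arrays, stood at 0.26 and -0.12. SHLD2's, at 0.25 and -0.20, was called against wild type in neither knockdown.

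LAMP2 had 5 further probes, and none had its member probe's 2 directions. Of these, 3 were above wild type in both knockdowns, at 0.38, 0.32 and 0.38 in AMOT-knockdown cells and 0.23, 0.39 and 0.65 in YAP-knockdown cells. The other 2 were below wild type in both, at -0.27 and -0.26 in AMOT-knockdown cells and -0.96 and -0.85 in YAP-knockdown cells. LAMP2 is known to be spliced to alternative last exons; which exon each probe reads was not used here. MID2's 2 further probes were lower in both knockdowns, at -1.11 and -1.21 in AMOT-knockdown cells and -0.45 and -0.38 in YAP-knockdown cells. CCNG2 had further probes at -0.27 and -0.81 in AMOT-knockdown cells and at 0.03 and -0.13 in YAP-knockdown cells, RHOT1 at -0.46 and -0.22 and at -0.22 and 0.46, and WDHD1 at -0.35 and -0.42 and at -0.18 and 0.02. MBNL3's further probe stood at 0.46 in AMOT-knockdown cells and 0.06 in YAP-knockdown cells, and of CCDC184's 2 further probes 1 kept both directions (-0.13 and 0.27) and the other stood at 0.10 and 0.05. For these genes the opposite movement was measured by the member probe and not by every probe of the gene.

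**Figure D4:**
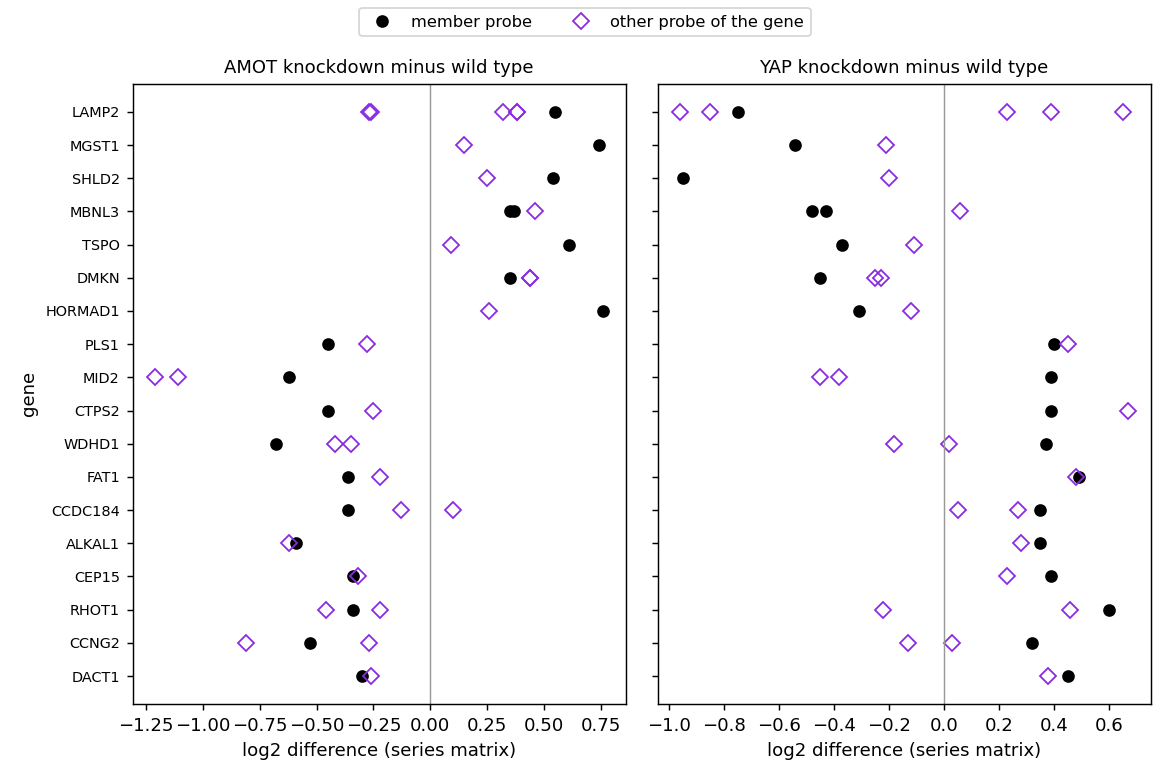
Log2 differences from wild type (series matrix) in AMOT-knockdown cells on the left and in YAP-knockdown cells on the right for the 18 member genes with further probes; black circles are member probes and open diamonds the 28 further probes. LAMP2 and MID2 have diamonds on the other side of 0 from their member probe, while FAT1, PLS1 and DMKN have none.

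Close relatives of the members, listed after the members were known, are given with no test. MGST3, the relative of MGST1, stood at -0.25 in AMOT-knockdown cells and 0.21 in YAP-knockdown cells, and TACC3 at 0.13 and -0.23, each with signs opposite to its relative's. MTCH2 stood at -0.07 in AMOT-knockdown cells and 0.16 in YAP-knockdown cells, with the signs of MTCH1. The sestrins SESN2 and SESN3 stood at -0.65 and -0.58 in AMOT-knockdown cells and at -0.18 and -0.57 in YAP-knockdown cells, beside SESN1. The muscleblind genes MBNL1 and MBNL2 stood at -0.49 and -1.02 in AMOT-knockdown cells and at -0.62 and -0.80 in YAP-knockdown cells. Around NEFM, the light subunit NEFL stood at -0.15 and -0.03, the heavy subunit NEFH at 0.03 and 0.11, and the related filament INA at 0.73 and 1.28, AMOT knockdown before YAP knockdown. MID1 stood at 0.81 in AMOT-knockdown cells and 0.41 in YAP-knockdown cells, and RAB9B, a close copy of RAB9A, at 0.39 and 0.38.

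Of 31 pathway lists, 4 held 5 member genes, and the other genes of those 4 lists were set beside them with limma over all probes, each gene by its brightest probe. Of the other 17 measured p53 targets, 5 were called higher and 3 lower in AMOT-knockdown cells (17.6% and 17.5% of all tested probes), and 10 higher and 1 lower in YAP-knockdown cells (18.5% and 18.7%). Their median fitted differences were 0.18 and 0.51, beside -0.02 and -0.01 over all tested probes. The first counts share their wild-type arrays. Between the knockdowns 10 of the 17 were lower in AMOT-knockdown cells, and 7 were not called. The cell cycle inhibitor CDKN1A rose by 0.50 on the log2 scale in AMOT-knockdown cells (SE 0.14, limma adjusted p = 0.021) and by 2.40 in YAP-knockdown cells (SE 0.14, adjusted p = 4.3e-06). TP53INP1, a promoter of autophagy, stood at -0.11 in AMOT-knockdown cells (adjusted p = 0.33) and rose by 1.13 in YAP-knockdown cells (SE 0.08, adjusted p = 1.5e-05), and the knockdowns differed by -1.25 (adjusted p = 4.4e-05). SESN2 fell by 0.83 (log2) in AMOT-knockdown cells (SE 0.13, adjusted p = 0.0013) and stood at -0.22 in YAP-knockdown cells (adjusted p = 0.24). TIGAR fell in both knockdowns, by 0.77 and by 0.35 on the log2 scale (adjusted p = 0.00047 and 0.027). Under median scaling, with detection p under 0.01 on all 9 arrays or without wild-type array 2, the count of the other p53 targets called higher in AMOT-knockdown cells was 3. The gene called lower in YAP-knockdown cells, TIGAR, lost its call with median scaling, with no filter on dim probes, without YAP-knockdown array 1 and without each wild-type array.

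**Figure D5:**
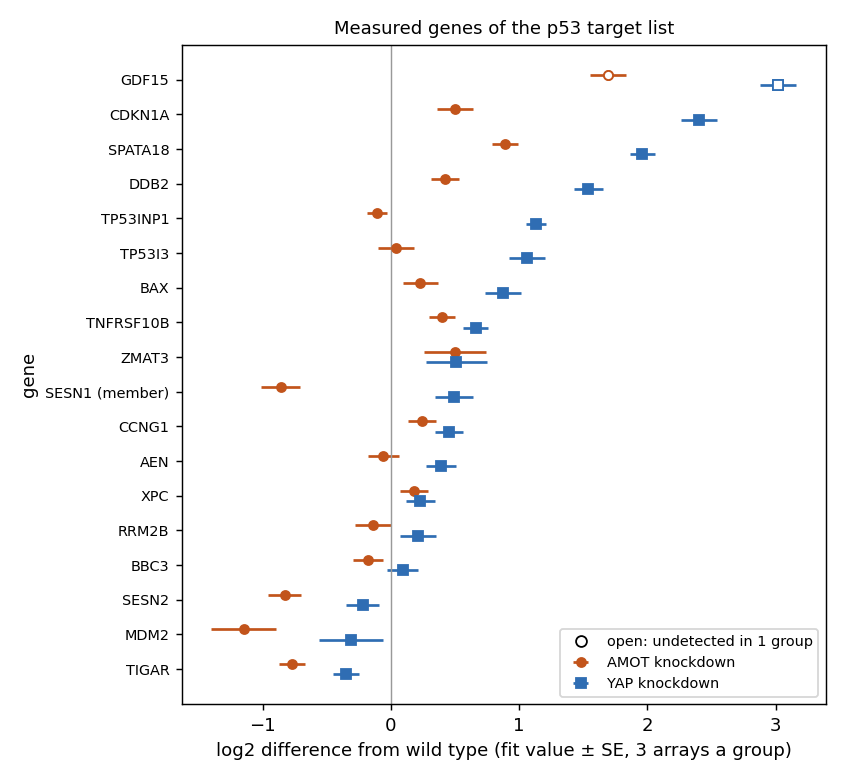
Fitted log2 differences from wild type, after background correction, for the 18 measured genes of the p53 target list, with orange circles for the AMOT knockdown and blue squares for the YAP knockdown; bars are standard errors with 3 arrays a group. SESN1 stands at -0.86 and 0.49, while CDKN1A stands at 0.50 and 2.40; the open symbols of GDF15, undetected on all 3 wild-type arrays, are fitted values whose size depends on the background.

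The list of glycolysis and hypoxia genes held 1 member of each set, ADM and PFKFB4. Of its other 30 measured genes, 6 were called higher and 9 lower in AMOT-knockdown cells (17.6% and 17.5% of all tested probes). In YAP-knockdown cells 7 were called higher and 8 lower (18.5% and 18.7%). The medians in AMOT-knockdown and YAP-knockdown cells were -0.16 and -0.01. Under median scaling 3 and not 6 were called higher in AMOT-knockdown cells. BNIP3L and NDRG1 rose in YAP-knockdown cells by 0.79 (limma adjusted p = 2.4e-04) and 0.70 (adjusted p = 0.0058). They stood at -0.19 and -0.14 in AMOT-knockdown cells (adjusted p = 0.16 and 0.52). Among the 8 called lower in YAP-knockdown cells were HK2 at -0.81, PGAM1 at -0.78, LDHA at -0.57 and ENO1 at -0.55. VEGFA was not called there (0.30, adjusted p = 0.13). PFKFB3, the relative of PFKFB4, stood at 0.11 in AMOT-knockdown cells and 0.09 in YAP-knockdown cells (adjusted p = 0.45 and 0.54).

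NEFM was the member on the list of neuronal genes. Of the other 29 measured genes, 18 were called higher and 2 lower in AMOT-knockdown cells (17.6% and 17.5% of all tested probes). In YAP-knockdown cells 19 were called higher and 3 lower (18.5% and 18.7%). The medians in AMOT-knockdown and YAP-knockdown cells were 0.54 and 1.19. With 4 genes undetected in a group set to their bound, the medians were 0.46 and 1.07. With detection p under 0.01 required on all 9 arrays, 11 were called higher in each knockdown. Without AMOT-knockdown array 1 or 3, or wild-type array 1 or 3, 1 was called lower in AMOT-knockdown cells. MAP1B, a microtubule protein of axons, fell in both knockdowns, by 0.80 and by 0.68 on the log2 scale (adjusted p = 0.025 and 0.045). RAB9A was the member on the list of membrane trafficking genes. Of the other 51 measured genes, 9 were called higher and 12 lower in AMOT-knockdown cells (17.6% and 17.5% of all tested probes). In YAP-knockdown cells 12 were called higher and 12 lower (18.5% and 18.7%). The medians in AMOT-knockdown and YAP-knockdown cells were -0.01 and 0.04. With 1 undetected gene at its bound, they were -0.01 and -0.03. Under median scaling the count called higher in AMOT-knockdown cells was 5 and the count called lower in YAP-knockdown cells 6, and on the series matrix 15 were called higher in AMOT-knockdown cells. With no filter on dim probes, and without YAP-knockdown array 1 or 2, 7 were called higher in YAP-knockdown cells. Without AMOT-knockdown array 2 and without wild-type array 3, 6 and 7 were called lower in AMOT-knockdown cells. The list of YAP/TAZ-TEAD targets held no member. CCN2, a known target of YAP, had been left out by symbol, so it could not be a member. Of the 15 measured genes of this list, 7 were called higher and 0 lower in AMOT-knockdown cells (17.6% and 17.5% of all tested probes). In YAP-knockdown cells 4 were called higher and 0 lower (18.5% and 18.7%). The medians in AMOT-knockdown and YAP-knockdown cells were 0.15 and 0.2.

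The member genes were spread over 18 chromosomes. Chromosome X held 7 of the 52 (13.5%, beside 3.7% of all named genes), LAMP2 (from 120426148 to 120469349), YIPF6 and MBNL3 in the set higher in AMOT-knockdown cells and RAB9A, MID2, CTPS2 and EDA2R in the set higher in YAP-knockdown cells. On X (GRCh38.p14) EDA2R, from 66595637 to 66639269, and YIPF6, from 68499051 to 68537282, moved in opposite directions. RAB9A, from 13689128 to 13710504, and CTPS2, from 16587999 to 16712910, lie on the short arm and moved alike, both higher in YAP-knockdown cells. All 4 member genes on chromosome 17 (7.7%, beside 6.0% of all named genes) were higher in YAP-knockdown cells: RHOT1 from 32142502 to 32225727, GGNBP2 from 36544919 to 36589848, TMEM100 from 55719627 to 55732081 and PPM1D from 60600193 to 60666280. So were all 4 on chromosome 6 (7.7%, beside 5.4%) and all 3 on chromosome 8 (5.8%, beside 3.6%). All 3 on chromosome 19 (5.8%, beside 6.7%) were higher in AMOT-knockdown cells. Other chromosomes were mixed: chromosome 3 held 3 genes of each set (11.5%, beside 5.6%). Chromosome 1 held 4 higher in AMOT-knockdown cells and 1 higher in YAP-knockdown cells (9.6%, beside 10.2%). Of all 52 genes, 32 were higher in YAP-knockdown cells. Elsewhere, SHLD2 lies on chromosome 10 from 87094473 to 87191465, MGST1 on chromosome 12 from 16347115 to 16593331, SESN1 on chromosome 6 from 108984309 to 109094846 and FAT1 on chromosome 4 from 186587794 to 186726696. These are counts of genes chosen by their values and carry no test.

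The 250 bases before each RefSeq gene start were searched, on both strands, for GGAATG (the core of the TEAD site, CATTCC on the other strand), TGACTCA (an AP-1 site, TGAGTCA on the other strand), CACGTG (an E-box) and TGACGTCA (a cAMP response element). No motif contains another. Of the 52 member genes, 41 had an entry in the promoter table, several with more than 1 start. The TEAD core was in 1 of 30 promoters of the set higher in AMOT-knockdown cells (DMKN) and in 7 of 36 of the set higher in YAP-knockdown cells (5 genes, DACT1, GGNBP2, MTCH1, PLS1 and SESN1), beside 11.89% of all 35116 promoters. The AP-1 site was in 2 of 30 (DMKN) and 1 of 36 (EDA2R), beside 4.20%, and the E-box in 2 of 30 (MIDN and SIRT1) and 4 of 36 (CCNG2, EDA2R, GRAMD4 and MTCH1), beside 6.34%. The cAMP response element was in 1 of 30 (ZSCAN5A) and 2 of 36 (FAT1 and PPM1D), beside 1.65%. A match describes these letters and shows no binding.

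Promoters that hold the TEAD core or the cAMP response element are shown for the named genes only. These are the 15 of each set with the largest smaller-of-both differences and those on a pathway list. DACT1, GGNBP2 and MTCH1, which also hold the TEAD core, are not among them and are not shown. Capitals mark the motif, and each sequence is the 250 bases before a RefSeq start (GRCh38.p14), 5′ to 3′ along the gene's strand. The TEAD core is in DMKN (chr19:35510471-35510720, minus strand), PLS1 (chr3:142596143-142596392, plus strand; a second start, with the core in chr3:142623174-142623423, is not shown) and SESN1 (chr6:109009553-109009802, minus strand).
DMKN: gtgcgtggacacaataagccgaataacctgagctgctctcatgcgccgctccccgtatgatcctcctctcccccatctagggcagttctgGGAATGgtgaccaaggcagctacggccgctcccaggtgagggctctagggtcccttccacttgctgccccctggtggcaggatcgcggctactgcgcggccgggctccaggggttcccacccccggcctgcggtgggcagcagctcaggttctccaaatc
PLS1: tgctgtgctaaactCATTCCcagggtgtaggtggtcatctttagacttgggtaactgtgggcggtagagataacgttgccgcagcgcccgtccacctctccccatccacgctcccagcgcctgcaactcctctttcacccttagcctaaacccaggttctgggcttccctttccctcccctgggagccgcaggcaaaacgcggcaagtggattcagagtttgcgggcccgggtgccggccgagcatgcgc
SESN1: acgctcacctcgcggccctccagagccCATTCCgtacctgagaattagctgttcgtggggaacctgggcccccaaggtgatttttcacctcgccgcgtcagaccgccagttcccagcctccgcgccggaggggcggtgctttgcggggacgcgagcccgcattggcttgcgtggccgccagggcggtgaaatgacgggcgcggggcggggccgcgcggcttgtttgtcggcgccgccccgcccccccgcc

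The cAMP response element is in ZSCAN5A (chr19:56314563-56314812, minus strand), FAT1 (chr4:186726697-186726946, minus strand) and PPM1D (chr17:60599943-60600192, plus strand).
ZSCAN5A: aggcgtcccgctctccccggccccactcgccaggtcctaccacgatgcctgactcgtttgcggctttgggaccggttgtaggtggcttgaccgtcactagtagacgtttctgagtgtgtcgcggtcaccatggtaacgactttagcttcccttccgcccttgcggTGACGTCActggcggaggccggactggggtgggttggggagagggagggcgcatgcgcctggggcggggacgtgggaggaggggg
FAT1: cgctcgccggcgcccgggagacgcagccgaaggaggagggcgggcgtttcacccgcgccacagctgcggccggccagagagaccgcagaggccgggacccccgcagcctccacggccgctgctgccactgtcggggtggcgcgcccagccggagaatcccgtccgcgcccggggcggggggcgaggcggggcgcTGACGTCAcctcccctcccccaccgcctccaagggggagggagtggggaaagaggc
PPM1D: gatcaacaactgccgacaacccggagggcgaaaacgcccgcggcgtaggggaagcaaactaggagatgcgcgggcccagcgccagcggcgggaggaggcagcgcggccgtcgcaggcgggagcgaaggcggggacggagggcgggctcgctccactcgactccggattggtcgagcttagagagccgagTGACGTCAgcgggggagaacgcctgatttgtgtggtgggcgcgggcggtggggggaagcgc

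Of the promoters shown, DMKN and ZSCAN5A belong to genes higher in AMOT-knockdown cells (differences of 0.35 and 0.62), and PLS1, SESN1, FAT1 and PPM1D to genes higher in YAP-knockdown cells (0.40, 0.45, 0.49 and 0.40). The TEAD core begins 160, 236 and 223 bases before the starts shown for DMKN, PLS1 and SESN1. The cAMP response element begins 85, 56 and 61 bases before those shown for ZSCAN5A, FAT1 and PPM1D. For DMKN, SESN1 and ZSCAN5A the start shown lies inside the gene and is not its outermost start. These minus-strand genes extend to 35513649, 109094846 and 56368278, upstream of the sequences shown.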

How the data were processed

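Total RNA of 9 HEK293 samples was labelled with biotin, per the labels' protocols, and measured on Illumina bead arrays. Per the file headers, the deposited unprocessed table holds 1 intensity per probe and array for 47231 probes, on a linear scale, with a detection p-value beside it. The deposited series matrix holds 20062 of these probes as intensity values, already normalized by the authors; neither method nor filter is given in the sources used here. They differed by at most 0.045 on the log2 scale from the unprocessed signals after quantile normalization without background correction, and their rank correlation with the unprocessed signals was 1.

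Symbols came from a table of the platform's annotation, with 15467 probes having 1 symbol, 4 several and 4591 none, updated by gene number to RefSeq (GRCh38.p14), which also gave positions and promoter sequences. The rule was applied to log2 of the series matrix. For the tests, limma 3.58.1 in R 4.3.3 was run on the unprocessed signals (neqc, offset 16; probes with detection p under 0.05 on at least 3 of 9 arrays; 1 model over 9 arrays with 6 residual and 3.53 prior degrees of freedom; Benjamini-Hochberg adjustment within each contrast). The offset holds differences of dim probes towards 0, and quantile normalization would hide a change of total RNA. The fit was tested on simulated data. The number of arrays limits the precision.

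Named genes were the 15 of each set with the largest smaller-of-both differences and those on a pathway list. The members and lists were chosen with earlier results of these data known.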

Additional observations from a re-analysis of the deposited data

How the results depend on the processing

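The rule gave 22 and 33 probes (higher in AMOT-knockdown cells, higher in YAP-knockdown cells) on the series matrix. It gave 50 and 67 on background-corrected, quantile-normalized values, 51 and 61 with cyclic loess, 66 and 102 with a limit of 0.2, and 4 and 1 with a limit of 0.5. On unprocessed signals scaled to equal medians it gave 9 and 38. Background correction widens differences of dim probes. A lower limit lets in more probes and a higher limit fewer by definition. For the other ways of normalizing the cause was not tested. Leaving out 1 array gave 21 to 28 and 32 to 39. Quantile normalization without background correction gave 22 and 33, and detection p under 0.01 on all 9 arrays 20 and 31. Of 620 differences of the 31 named genes under other settings, none reversed and 62 moved by over 1 SD. These genes had been chosen for wide, separated differences on the same arrays, so the kept signs are a description and no support.

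Over all probes, 3904 differed between the knockdowns, 2390 under median scaling and 2470 to 3982 with 1 array left out (2503 without AMOT knockdown array 1, 2470 without YAP knockdown array 1 and 2554 without YAP knockdown array 2). Median scaling gave 863 higher and 1527 lower in place of 1926 and 1978, and in YAP-knockdown cells against wild type 3803 higher and 2478 lower in place of 4147 and 4191. Same-numbered arrays did not deviate together (correlations from -0.131 to 0.099). With the replicate block 7233, 7837 and 3304 probes were called for AMOT knockdown, YAP knockdown and the contrast of both, in place of 7846, 8338 and 3904. Probes near background, such as HORMAD1 and EDA2R, have only bounds.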
